A study of Mus musculus with 16 samples.

Results

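The keratin genes of embryonic mouse skin were followed across 8 sorted cell fractions at embryonic day 14.5. A row of the deposited expression table counted as a keratin when its symbol was Krt, a number and at most 1 letter, which leaves out the keratin-associated proteins. This gave 49 keratins among 23235 rows. Each fraction had 2 libraries, 16 in all, from skin cells separated by fluorescence-activated cell sorting. The labels name the fractions Pc, Epi, Mc, Sch, DCSch, DC, Fb and Neg and do not spell them out. The names are taken, from what is generally known of this study, to mean hair placode (Pc), epidermis (Epi), melanocytes (Mc), Schwann cells (Sch), dermal condensate with Schwann cells (DCSch), dermal condensate (DC), fibroblasts (Fb) and cells left negative (Neg). The labels give no strain, genotype or sorting marker, and do not say whether the libraries came from separate litters. The p-values therefore cover only the spread among these libraries, which may be technical. Levels are FPKM, fragments scaled by transcript length and library, and a mean is given ± SD of 2 libraries. Sch replicate 1 stood apart from its partner in keratin RNA, with a keratin sum of 247 FPKM against 35.7 in Sch replicate 2, so results that rest on it are also given without it.

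Keratins are the intermediate filament proteins of epithelial cells. A type I and a type II keratin join as a pair, and the pair changes as a cell matures: Krt5 and Krt14 fill the dividing basal layer of the epidermis, Krt1 and Krt10 replace them in the layers above, and Krt8 and Krt18 serve simple epithelia. At this stage the epidermis begins to stratify under a thin outer cover, the periderm, and placodes bud from its basal layer to start hair follicles.

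In the table, 28 keratins are type I and 21 are type II. On the mm10 build, 27 type I genes lie on chromosome 11 within 1037 kb, and 22 genes lie on chromosome 15 within 682 kb, where Krt18 is the type I member. Neighbours differed greatly in level. Krt5 (chromosome 15, 101707070 to 101712891) reached a mean of 1392 FPKM in Pc, while Krt6a and Krt71, the keratins on either side at 12.8 and 21.1 kb, had no fraction mean above 0.205 and 0.139 FPKM. Krt14 (chromosome 11, 100203162 to 100207510) reached 951 FPKM and lies 9.92 kb from Krt9, a keratin of palm and sole skin, at no more than 0.167 FPKM. Krt15 lies 4.86 kb from Krt19 and 10.3 kb from Krt13, a mucosal keratin whose highest fraction mean was 0.0303 FPKM. Krt1 and Krt77 are the abundant neighbours on chromosome 15, 9.07 kb apart.

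**Figure D1:**
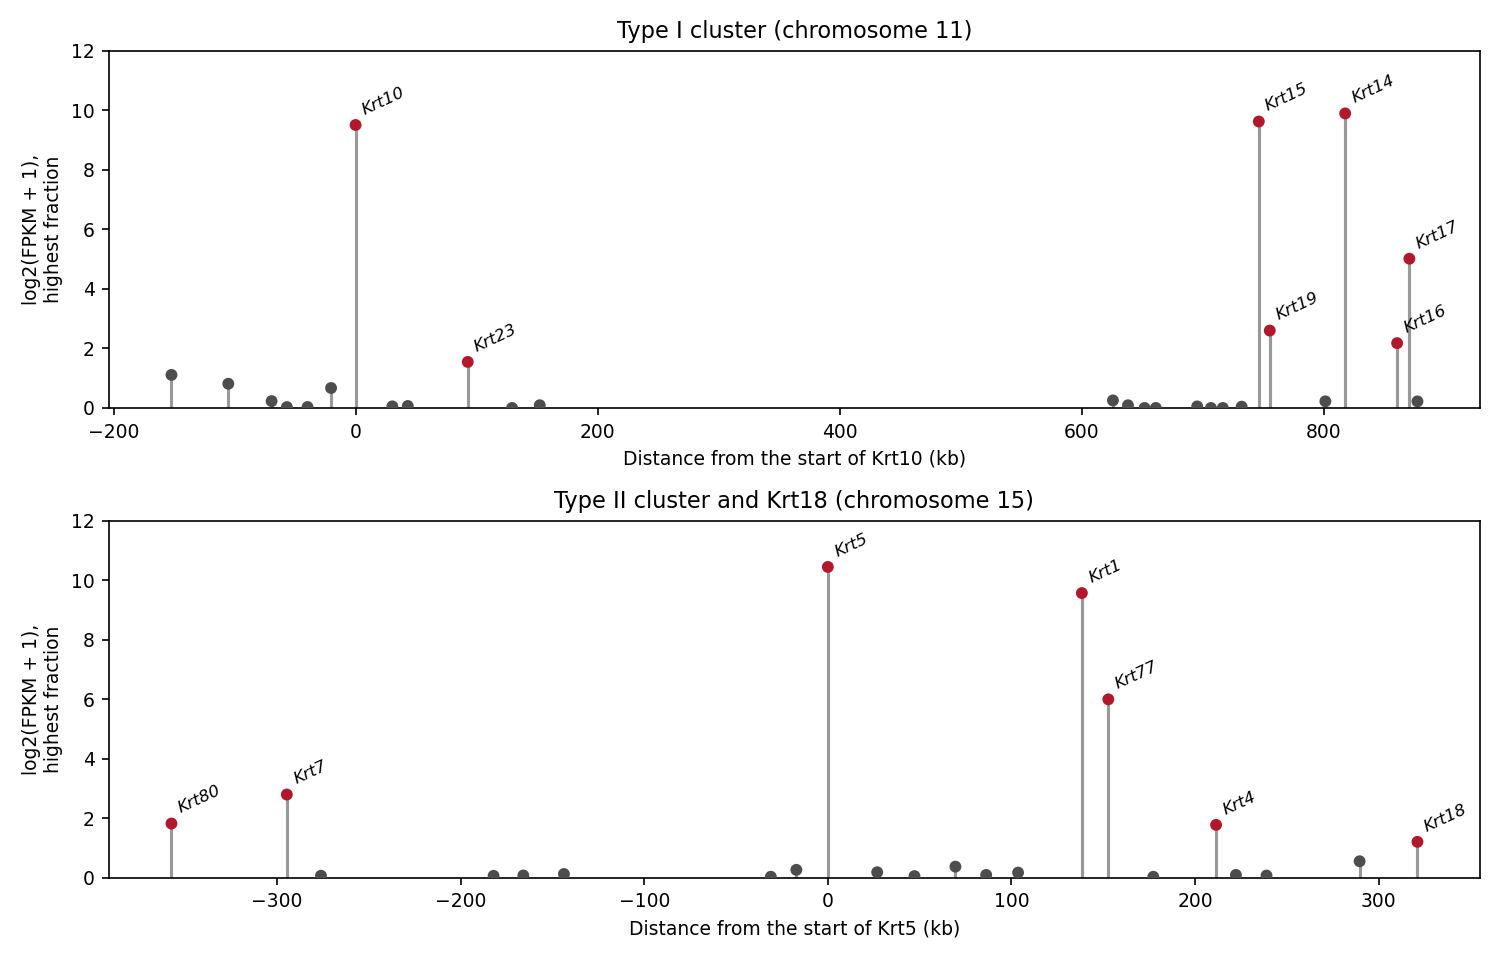
Highest fraction mean of each keratin, as log2(FPKM + 1) on the vertical axis, against distance in kb along the 2 gene clusters; each stem is 1 keratin and red points with a name are the 14 keratins tested. The abundant keratins stand among genes close to 0, as Krt5 does between Krt6a and Krt71.

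Upstream sequence is shown for abundant keratins and for silent neighbours, because neighbours with very unlike levels held the same short word before their start. The windows are the 60 bases upstream of the RefSeq start on GRCm38.p6, the assembly of mm10, and capitals mark ATAAA. Krt5 (chr15:101712906-101712965) and Krt10 (chr11:99389365-99389424) are abundant, Krt71 (chr15:101743098-101743157) and Krt12 (chr11:99422260-99422319) are the next keratins along the cluster and were near 0, Krt23 (chr11:99493121-99493180) is an epidermal keratin of low level, and Krt77 (chr15:101869706-101869765) is abundant without the word. All 6 are on the minus strand.
Krt5: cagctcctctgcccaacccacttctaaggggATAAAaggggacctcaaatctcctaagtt
Krt71: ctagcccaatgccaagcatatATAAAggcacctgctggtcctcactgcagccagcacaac
Krt10: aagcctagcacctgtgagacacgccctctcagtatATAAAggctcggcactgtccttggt
Krt12: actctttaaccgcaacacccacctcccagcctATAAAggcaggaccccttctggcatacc
Krt23: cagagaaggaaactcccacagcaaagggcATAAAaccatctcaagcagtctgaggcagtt
Krt77: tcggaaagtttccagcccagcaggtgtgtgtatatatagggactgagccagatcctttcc

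The word was chosen after the windows were seen and was searched on the gene's own strand only. Of 35 keratins with an entry, 34 had one within 100 bases of the start of the gene in the deposited table. ATAAA stood in 23 of these 34 windows (67.6%) and in 2458 of 32851 windows of all RefSeq promoters (7.48%). TATAAA, which contains it, stood in 15 keratin windows (44.1%) and in 2.87% of all. In the 23 windows with ATAAA, the first base of that word lay 7 to 46 bases before the start, with a median of 29. Among keratins expressed well enough to be tested, 4 of 6 windows held ATAAA, and among the others 19 of 28. A match is a description of these letters and not of a site in use.

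Only 14 of the 49 keratins had at least 1 FPKM in at least 2 libraries and were tested. These were the basal keratins Krt5, Krt14 and Krt15 (3 of 3), the keratins of upper epidermal layers Krt1, Krt10, Krt77 and Krt80 (4 of 7), Krt16 and Krt17 of periderm and activated epidermis (2 of 4), the mucosal keratin Krt4 (1 of 4), and Krt7, Krt18, Krt19 and Krt23, grouped here as simple keratins (4 of 6). No inner root sheath keratin was tested (0 of 10, highest library 1.07 FPKM), and no keratin of hair and nail (0 of 12, highest library 0.344 FPKM). Of the 35 keratins not tested, 5 were listed at 0 in every library (Krt31, Krt34, Krt35, Krt36 and Krt39, all of hair and nail) and 30 were above 0 somewhere. The 3 that reached 1 FPKM in a library did so outside the epithelium, Krt222 at 1.43 in DC replicate 2, Krt24 at 1.32 in DC replicate 1 and Krt28 at 1.07 in Sch replicate 1. Of the tested keratins 7 had their highest mean in Epi, 6 in Pc and 1, Krt80, in Neg.

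Krt5 was the most abundant keratin. It measured 1649 and 1136 FPKM in Pc, against 1355 and 1104 in Epi, 142 and 76.1 in Mc, 73.5 and 10.7 in Sch, 20.3 and 14.8 in DCSch, 11.6 and 9.64 in DC, 25.1 and 13.1 in Fb, and 24.1 and 19.7 in Neg. Its partner Krt14 measured 1166 and 735 FPKM in Pc, 897 and 653 in Epi, 95.5 and 45.4 in Mc, 43.0 and 4.94 in Sch, and 4.80 to 18.5 in the other 8 libraries. Both were high in the 4 epithelial libraries and lower in the other 12, with Mc and Sch replicate 1 next in order. Krt15, a type I keratin of the basal layer and later of follicle stem cells, measured 926 and 649 FPKM in Pc, 721 and 473 in Epi, 72.4 and 35.8 in Mc, 36.0 and 6.00 in Sch, and 5.45 to 16.0 elsewhere.

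The keratins of the upper layers had another order. Krt1 measured 855 and 659 FPKM in Epi and 191 and 78.0 in Pc, against 78.8 and 29.4 in Mc, 39.6 and 5.87 in Sch, and 4.51 to 12.2 elsewhere. Krt10, its type I partner, measured 859 and 594 FPKM in Epi, 223 and 76.7 in Pc, 85.3 and 26.2 in Mc, 46.0 and 5.82 in Sch, and 6.61 to 18.1 elsewhere. Both Epi libraries stood above every other library for both genes, and Pc replicate 2 lay below Mc replicate 1. Krt77 measured 72.2 and 53.4 FPKM in Epi, 9.69 and 3.61 in Pc, 7.48 and 1.83 in Mc, and 0.0968 to 4.69 elsewhere.

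Among the less abundant keratins, Krt17, known from periderm and from developing appendages, measured 43.5 and 19.1 FPKM in Pc, against 27.2 and 22.3 in Epi, and no more than 4.11 elsewhere. Krt16 reached 2.01 to 4.39 FPKM in the 4 epithelial libraries and at most 0.241 elsewhere. Its reads are uncertain, since 37.6% of the 50-base words of its transcript also occur in other genes, with 25.2% of all its words found in Gm11597. The same share was 14.4% for Krt14, 8.52% for Krt5 3.99% for Krt17 and less for the other tested keratins. Krt18 was at 1.82 and 0.803 FPKM in Pc, against 2.14 and 0.473 in Epi, and its partner Krt8 at 0.359 and 0.299 in Pc and 0.237 and 0.317 in Epi, with 0.294 and 0.649 in Neg. Of the factors that mark Merkel cells, the touch receptor cells that later carry Krt8, Krt18 and Krt20, Pou4f3 was listed at 0 in every library and Atoh1 reached at most 0.231 FPKM. The other 2 genes of that list are also known from other cells. Isl1 measured 17.4 and 20.4 FPKM in Neg and 3.51 and 3.53 in Sch, and Sox2 measured 25.1 and 19.4 in DC, and both were below 0.4 in Pc and Epi.

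**Figure D2:**
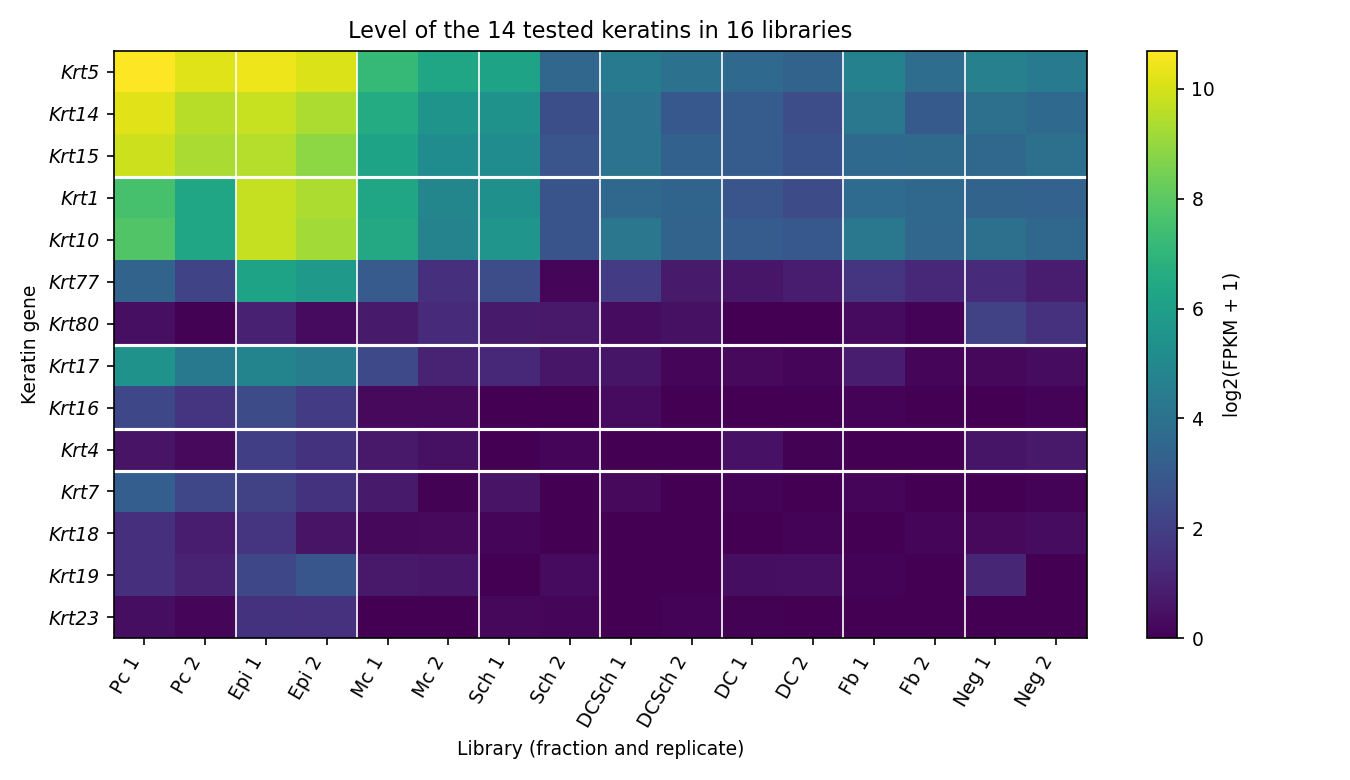
Level of the 14 tested keratins in the 16 libraries, as log2(FPKM + 1) by colour; white lines part the fractions and the role groups. The brightest library of a keratin is a Pc or Epi library for all but Krt80, and Krt1, Krt10 and Krt77 are brighter in Epi than in Pc.

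The label of each fraction was checked against marker genes that are no keratins. The summed FPKM of 20 other keratinocyte genes was 2016 to 2224 in Pc and 3071 to 3127 in Epi, against 397 to 529 in Mc and no more than 168 in the rest. The 5 placode genes summed to 38.0 to 42.4 FPKM in Pc, against 9.08 to 13.1 in Epi. Of them 4 were called higher in Pc, against 0.155% of all rows. Shh and Fgf20 of that list reached 1 FPKM in 2 libraries only through Pc, so this count is not independent of the filter for tested rows. Melanocyte, Schwann cell, dermal condensate and fibroblast lists each had their highest sums in the fraction of that name. Library totals ran from 439201 to 606437 FPKM. Keratins made up 0.499 to 0.795% of the total in Pc and Epi, 0.0424 to 0.101% in Mc, 0.00804 and 0.0563% in Sch, and 0.0075 to 0.0181% in the other 8 libraries.

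Between placode and epidermis no difference in basal keratins was detectable, while Krt1, Krt10 and Krt77 of the upper layers were at lower levels in both placode libraries. These 3 were not called in the main test and were called lower once replicates were paired by number, a pairing inferred from these data. The test was limma's moderated test on log2(FPKM + 1) over 14171 rows, with Benjamini-Hochberg adjustment, and calls needed an adjusted p under 0.05 with a log2 difference of at least 1 either way. Krt5 differed between Pc and Epi by 0.16 on the log2 scale (SE 0.65, 95% interval -1.27 to 1.60), Krt14 by 0.27 (SE 0.78, -1.42 to 1.97) and Krt15 by 0.41 (SE 0.62, -0.94 to 1.76), each with overlapping libraries and adjusted p of 1. These intervals are wide, so a difference of up to about these bounds was not detectable.

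Krt4 and Krt23 were called lower in Pc. Krt23 measured 0.305 and 0.103 FPKM in Pc, against 1.98 and 1.86 in Epi, a log2 difference of -1.28 (SE 0.12, adjusted p = 0.000425). Krt4 measured 0.482 and 0.213 FPKM in Pc, against 2.90 and 1.96 in Epi, a difference of -1.34 (SE 0.20, adjusted p = 0.0047). The groups did not overlap for either gene, but both levels are low. Leaving out Pc replicate 2 or Epi replicate 1 ended the call of Krt4 (adjusted p = 0.0721 and 0.0521), as did a pseudocount of 0.1 (difference -2.54, adjusted p = 0.135), and with only the 4 libraries compared neither gene was called.

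Krt1, Krt10, Krt77 and Krt19 were lower in both Pc libraries than in both Epi libraries and passed once the replicate number was a block. The log2 difference was -3.17 for Krt77 (SE 0.73, adjusted p = 0.0540, with the block 0.0023) and -2.61 for Krt1 (SE 0.69, adjusted p = 0.108, with the block 0.0302). It was -2.44 for Krt10 (SE 0.81, adjusted p = 0.253, with the block 0.0358) and -1.31 for Krt19 (SE 0.32, adjusted p = 0.0694, with the block 0.0276). Krt19, a keratin of simple epithelia and of periderm, measured 1.79 and 1.06 FPKM in Pc, against 3.94 and 6.18 in Epi. That the numbers pair the samples was inferred from these same data. In both fractions replicate 1 was the higher library for Krt1, Krt10 and Krt77. Without Sch replicate 1 in the shared estimate of the spread, Krt1 and Krt77 were called lower without the block as well (adjusted p = 0.0185 and 0.0190 from limma).

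By count, 2 of 14 keratins were lower in Pc and 0 higher, against 1.37% of all tested rows lower and 0.155% higher. The 2, Krt4 and Krt23, reached 1 FPKM only in the 2 Epi libraries. They were tested only because they were high in Epi, so their count is not independent of the filter. At an unadjusted p under 0.05, 6 keratins were lower and 1, Krt7, was higher. With the block 6 were lower and 0 higher, against 2.18% and 0.416% of all rows. Krt7, a keratin of glands and simple epithelia, measured 8.10 and 3.82 FPKM in Pc, against 3.35 and 1.92 in Epi, without overlap, and its difference of 0.89 stayed under the limit of 1 (adjusted p = 0.344, with the block 0.0439). The median over the 14 keratins was -0.29 on the log2 scale, and 0.00 over all rows.

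Some markers of other cells differed between Pc and Epi too. The 5 melanocyte genes summed to 26.5 to 29.3 FPKM in Pc, against 158 to 222 in Epi. Of them 4 were called lower in Pc, against 1.37% of all rows. The 5 periderm genes that are no keratins summed to 94.3 to 149 FPKM in Pc, against 235 to 238 in Epi, and none was at 0 in either fraction; 0 of the 5 were called (2 lower at an unadjusted p under 0.05, and 1 lower with the block), and Cldn6 overlapped at 13.0 ± 0.9 and 14.7 ± 6.5 FPKM. The 2 macrophage genes summed to 0.617 to 1.06 FPKM in Pc and 4.72 to 6.33 in Epi, and 1 of them, Tyrobp, was called lower in Pc. Their part in the keratin differences was not tested. In a sorted fraction, fewer cells of a type and less RNA per cell cannot be told apart.

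**Figure D3:**
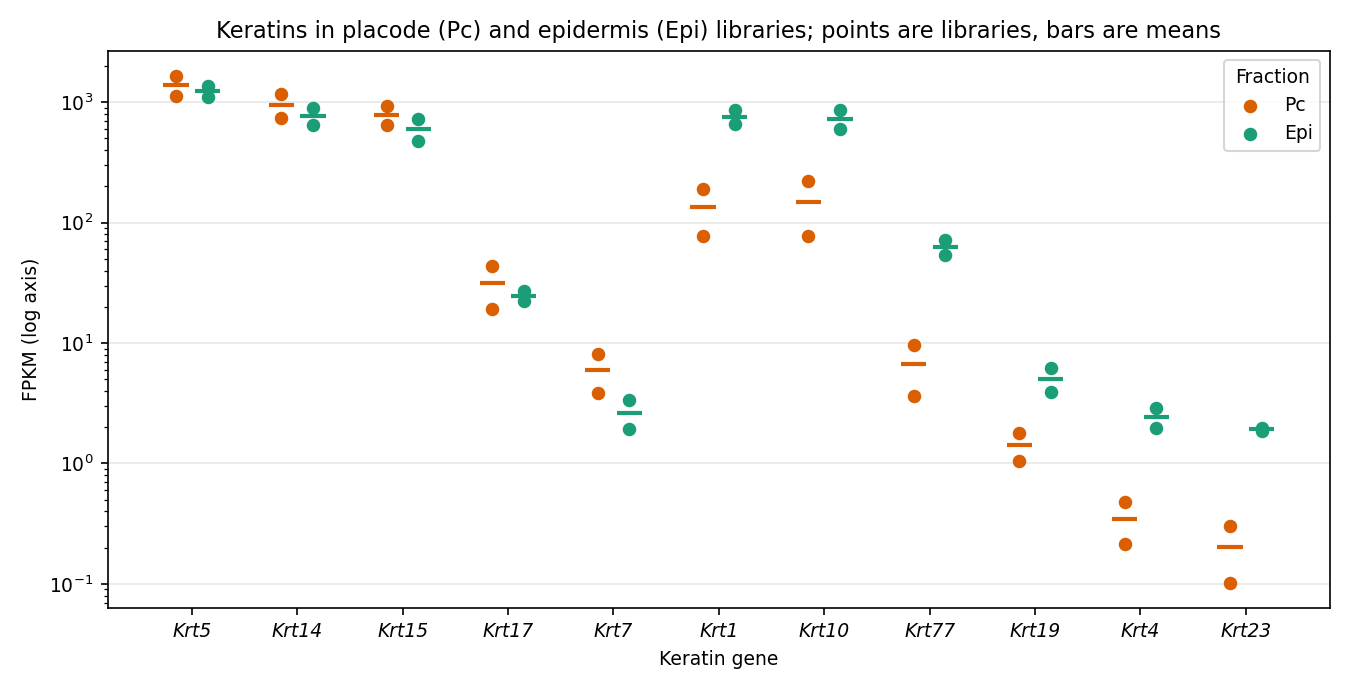
FPKM on a log axis of 11 keratins in the 2 Pc and 2 Epi libraries; points are libraries and bars are means. Krt5, Krt14, Krt15 and Krt17 overlap between the fractions, and Krt1, Krt10, Krt77, Krt19, Krt4 and Krt23 lie lower in both Pc libraries than in both Epi libraries.

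Ratios between keratins of 1 library do not depend on the level of that library. The ratio of the partners Krt5 to Krt14 did not part Pc from the rest and ran from 1.30 to 2.22 over all 16 libraries. The ratio of an upper-layer to a basal keratin of the same type did. Krt1 to Krt5 was 0.116 and 0.0686 in Pc, 0.631 and 0.597 in Epi, and 0.386 to 0.838 in the other 12 libraries. Krt10 to Krt14 was 0.191 and 0.104 in Pc, 0.958 and 0.909 in Epi, and 0.577 to 1.49 in the other 12. Both ratios were chosen after the values were seen and carry no test. By these 2 ratios, upper-layer to basal keratin RNA in the 12 libraries outside the epithelium was nearer to Epi than to Pc. Krt77 to Krt5 was 0.00588 and 0.00318 in Pc, 0.0533 and 0.0484 in Epi, and 0.00906 to 0.133 in the 12 (median 0.0565). By that ratio Mc replicate 2 (0.0241) and Sch replicate 2 (0.00906) were the lowest of the 12 and lay between Pc and Epi. The value of Sch replicate 2 rests on Krt77 at 0.0968 FPKM, a level near the floor. Type I keratins summed to 0.963 to 1.45 times the type II keratins in every library.

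**Figure D4:**
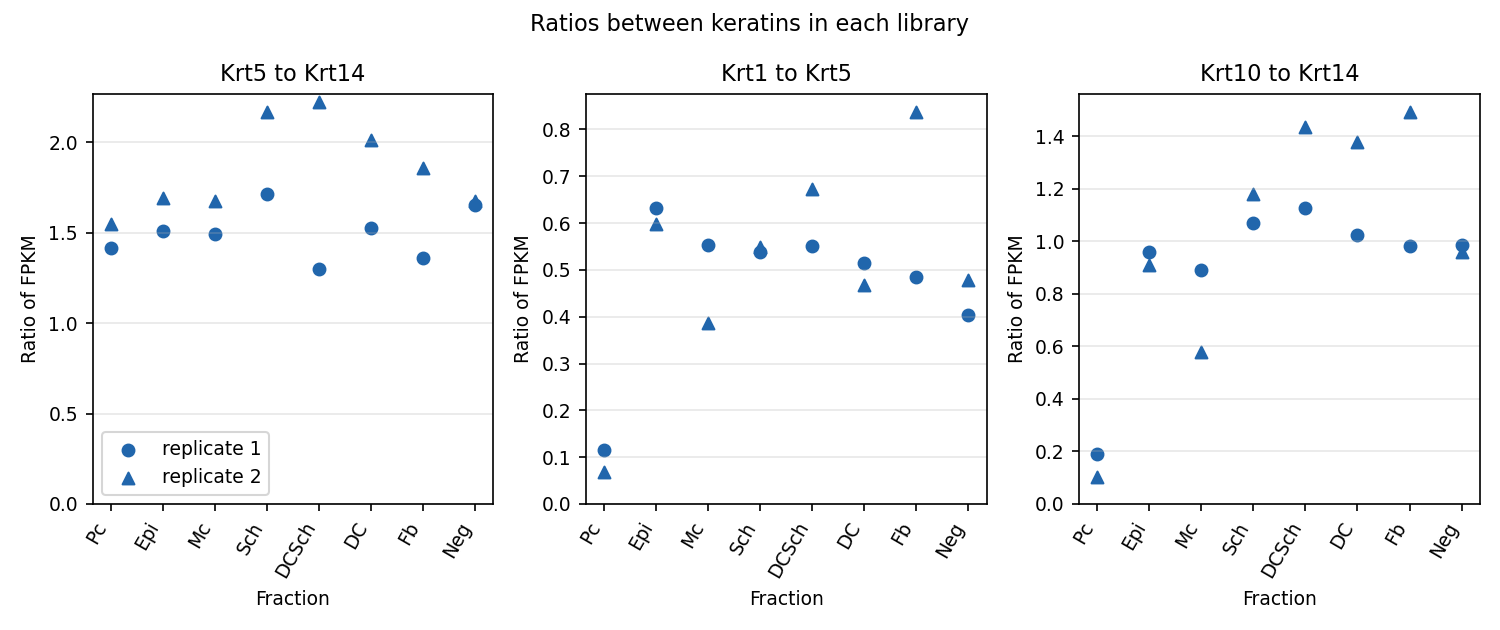
Ratio of FPKM between keratins in each library for Krt5 to Krt14, Krt1 to Krt5 and Krt10 to Krt14; circles are replicate 1 and triangles replicate 2. The Pc libraries lie at 0.116 and 0.0686 for Krt1 to Krt5, below the other 14 libraries, and not apart for Krt5 to Krt14.

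Some genes that anchor keratin filaments or regulate keratins were also lower in Pc. Of 20 tested genes of desmosomes and hemidesmosomes, 3 were lower in Pc and 0 higher (7 lower with the block), against the 1.37% of all rows lower (2.18% with the block). They were the desmosomal cadherins Dsc1, at 1.26 ± 0.54 FPKM in Pc, against 16.3 ± 1.5 in Epi, Dsg1a at 6.25 ± 2.07 and 33.6 ± 5.7, and Dsc2, at a log2 difference of -1.79. Of 24 tested regulators 3 were lower in Pc and 0 higher (5 lower with the block), against the same shares. Grhl1, a grainyhead factor of the epidermal barrier, measured 7.48 ± 3.68 FPKM in Pc, against 32.2 ± 2.1 in Epi. Foxn1, which promotes the step from basal to upper layers, measured 2.45 ± 1.20 and 10.9 ± 0.7, and Ovol1, a factor of epidermal differentiation, 2.69 ± 1.41 and 10.6 ± 0.5. The other cytoplasmic intermediate filament genes gave 0 calls among 9 tested (0 at an unadjusted p under 0.05, and 0 with the block).

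Against the mesenchyme, nearly every tested keratin was higher in the epithelium. In Epi against Fb 13 of 14 keratins were higher and 0 lower, against 10.5% of all rows higher and 14% lower. Krt4, Krt7, Krt16, Krt18, Krt19 and Krt23 did not reach 1 FPKM in 2 libraries outside Pc and Epi. They were tested only through epithelial libraries, so their direction here was largely set by that filter. Rescaling every library to the same total moved the calls over all rows from 1483 higher and 1987 lower to 1129 and 2430, and shifted the median over all rows to -0.20 on the log2 scale; 12 keratins were then higher. The log2 differences were 5.99 for Krt5 (SE 0.65, adjusted p = 2.0e-05), 5.93 for Krt14, 5.90 for Krt1, 5.59 for Krt10, 5.53 for Krt15, 4.54 for Krt77 and 4.18 for Krt17. Krt4 and Krt23 were listed at 0 in both Fb libraries. Krt18 stood at the limit (1.03, adjusted p = 0.0175) and lost its call without Epi replicate 1 (0.49, adjusted p = 0.183) or Fb replicate 1 (0.96, adjusted p = 0.0778), with no filter on low values (adjusted p = 0.0555), with only the 4 libraries compared (adjusted p = 0.105), and after rescaling, where its difference fell under 1. Krt80 was not called, at 0.605 ± 0.500 FPKM in Epi and 0.163 ± 0.118 in Fb.

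In Pc against DC, the epithelial and mesenchymal parts of the forming follicle, 10 of 14 keratins were higher and 0 lower, against 13.3% of all rows higher and 14.3% lower. Of these, Krt7, Krt16 and Krt18 passed the filter only through Pc and Epi libraries. Krt14 differed by 7.04 on the log2 scale, Krt5 by 6.89 and Krt15 by 6.71, with 4.31 for Krt1 and 4.01 for Krt10. Krt16 was listed at 0 in both DC libraries. Krt77 (2.07, adjusted p = 0.0432) lost its call when Pc replicate 1 or either DC library was left out (adjusted p = 0.261, 0.137 and 0.110), with a pseudocount of 0.1 (0.0740), with no filter (0.132) and after rescaling (0.0588), and Krt18 (1.12, adjusted p = 0.0102) when Pc replicate 1 or DC replicate 1 was (0.106 and 0.0538). Krt4, Krt19, Krt23 and Krt80 were not called.

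The same contrasts set the anchoring genes and the regulators against vimentin. Of the 20 anchoring genes 18 were higher in Epi than in Fb and 18 higher in Pc than in DC, led in Epi against Fb by the plaque protein Dsp (5.93), the desmosome protein Perp (5.86) and Pkp1 (5.62), and Itga6 and Plec were not called in either. Of the 24 regulators 21 were higher in each, with Trp63, the master factor of stratified epithelium, at 5.60 and 6.72. Over all rows 10.5% were higher in Epi than in Fb and 13.3% higher in Pc than in DC. Both lists were made of genes known from epithelium. The regulators Ovol1, Ovol2, Hoxc13, Msx2, Foxn1 and Dlx3 and the anchoring gene Dsc1 did not reach 1 FPKM in 2 libraries outside Pc and Epi. They were tested only through epithelial libraries, so their direction in these contrasts was largely set by the filter. Klf4, a factor of the epidermal barrier, was not called in Epi against Fb and was lower in Pc than in DC. Vim, the filament gene of mesenchymal cells, measured 73.8 and 75.2 FPKM in Epi, 65.7 and 38.8 in Pc, and 672 to 1689 in the other 12 libraries, and was lower by 3.53 in Epi than in Fb and by 4.39 in Pc than in DC on the log2 scale. Nes (-2.11) and Des (-1.47) were also lower in Epi than in Fb.

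Keratin RNA outside the epithelium was set against its level in Epi. For each of the 7 keratins that reached a mean of 10 FPKM in a fraction (Krt1, Krt5, Krt10, Krt14, Krt15, Krt17 and Krt77), its level in a library was taken as a percent of its Epi mean. The median of the 7 was 11.9 and 4.36% in the Mc libraries, 5.98 and 0.801% in Sch, 2.13 and 1.21% in DCSch, 0.940 and 0.784% in DC, 2.38 and 1.46% in Fb, and 1.88 and 1.52% in Neg. Replicate 1 had the higher median in each of these fractions, and the higher keratin sum in all 8 fractions.

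Keratinocyte genes that are no keratins gave medians of similar size, but single genes often lay outside the range of the keratins. The median of 20 such genes was 10.99 and 4.95% in Mc, 5.45 and 0.944% in Sch, 2.02 and 1.66% in DCSch, 1.01 and 0.978% in DC, 1.78 and 1.37% in Fb, and 2.08 and 2.27% in Neg. Within a library the 7 keratins ran from 10.4 to 16.6% in Mc replicate 1, 5.24 to 7.47% in Sch replicate 1 and 0.786 to 1.26% in DC replicate 1, and they were widest apart in Sch replicate 2, at 0.154 to 2.27%. Of the 20 other genes, from 7 (DC replicate 2) to 18 (Sch replicate 2) lay within the keratin range of a library outside the epithelium. The rest lay on either side of that range. In Mc replicate 1, 9 were below and 2 above, and in Sch replicate 1, 8 were below and 4 above. In DCSch replicate 2, 0 were below and 12 above. Several stood far above the keratins. The epithelial cadherin Cdh1 was at 90.9 and 95.7% of its Epi mean in Mc, and the hemidesmosome integrin Itgb4 at 27.9 and 12.4% in Sch. The cadherin Cdh3 was at 64.2 and 48.3% in Mc and 13.0 and 14.1% in Fb. Ovol1, a gene of low level, was at 3.46 and 8.92% in DC and 4.58 and 8.86% in Neg. Grhl2 was at 4.37 and 6.71% in Neg. Whether keratin RNA in these libraries came from keratinocytes carried through the sort was not tested.

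**Figure D5:**
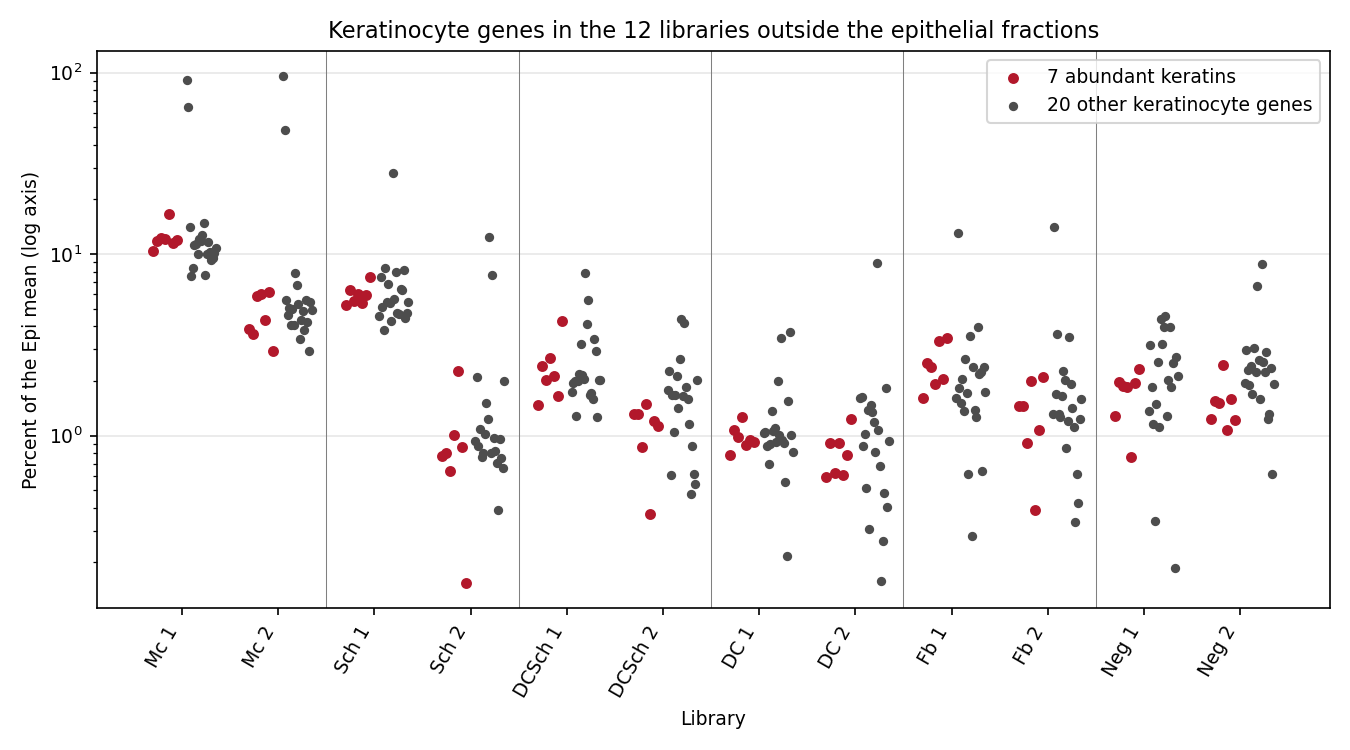
Level of 7 abundant keratins (red) and 20 other keratinocyte genes (grey) in the 12 libraries outside the epithelium, as percent of the Epi mean on a log axis; points are genes. The keratins of Mc replicate 1 lie at 10.4 to 16.6%, those of Sch replicate 1 at 5.24 to 7.47%, and Cdh1 and Cdh3 stand above them in Mc.

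In Mc against Sch 0 of 14 keratins were called, with 5 higher at an unadjusted p under 0.05, against 4.53% of all rows higher and 7.31% lower. Krt5 differed by 1.83 on the log2 scale (SE 0.65, adjusted p = 0.0906) and Krt14 by 2.05 (SE 0.78, adjusted p = 0.111). With the block 3 were higher in Mc, Krt14 (adjusted p = 0.0158), Krt5 (0.0242) and Krt15 (0.0378), against 5.64% of all rows higher and 8.14% lower. Without Sch replicate 1, the lone Sch library being assumed to vary like the other fractions, 5 were higher: Krt14 by 3.50, Krt5 by 3.17, Krt15 by 2.89, Krt1 by 2.84 and Krt10 by 2.83. The calls thus turned both on the pairing and on whether Sch replicate 1 was kept.

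In DC against Fb 0 of 14 keratins were called, 0 at an unadjusted p under 0.05 and 0 with the block, against 6.13% of all rows higher and 9.2% lower, or 6.85% and 9.96% with the block. The 7 abundant keratins were at lower means in DC than in Fb, with Krt5 at -0.73 (95% interval -2.17 to 0.70) and Krt1 at -1.02 (-2.53 to 0.49). Of the 24 regulators 4 were higher in DC and 0 lower, Tfap2a by 3.08, Klf4 by 2.58, Lef1 by 2.50 and Tfap2c by 1.38. Cdh3 was the keratinocyte gene called, lower in DC by 2.44.

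Krt80 was the tested keratin with its highest mean outside the epithelium. This type II keratin of differentiating epithelia measured 3.17 and 1.91 FPKM in Neg, 0.694 and 1.39 in Mc, 0.712 and 0.654 in Sch, 0.958 and 0.251 in Epi, 0.349 and 0.0436 in Pc, 0.263 and 0.382 in DCSch, 0.247 and 0.0801 in Fb, and was listed at 0 in both DC libraries. It was thus above its Epi mean in both libraries of Neg (524 and 316% of that mean), Mc (115 and 230%) and Sch (118 and 108%). That mean is low, at 0.605 ± 0.500 FPKM, and Epi replicate 1 lay above Mc replicate 1 and both Sch libraries. The 7 abundant keratins were at 0.765 to 2.44% of their Epi means in Neg. Other low keratins were also above that range there, Krt4 at 21.3 and 27.1%, Krt18 at 18.6 ± 5.1% and Krt19 at 23.9% in Neg replicate 1 and listed at 0 in Neg replicate 2. Krt8, not tested, also had its highest mean in Neg, at 0.471 ± 0.251 FPKM. In Neg against Fb Krt80 was higher by 1.59 on the log2 scale (limma, SE 0.25, adjusted p = 0.000666, with the block 0.000271), at 2.54 ± 0.89 against 0.163 ± 0.118 FPKM. Krt80 reached 1 FPKM only in both Neg libraries and in Mc replicate 2. Without the Neg libraries it would not have been tested, so its direction here was largely set by that filter. Krt80 was the 1 keratin of 14 called, against 7.77% of all rows higher and 7.71% lower. Rescaling moved those calls from 1101 higher and 1092 lower to 903 and 1492, with the median over all rows at -0.20, and Krt80 kept its call.

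Markers of other lineages were high in Neg. The 3 endothelial genes summed to 195 to 277 FPKM in Neg and at most 16.8 elsewhere, the 2 macrophage genes to 69.7 to 77.2 against at most 6.59, the 2 skeletal muscle genes to 50.7 to 73.8 against at most 1.11, and the 2 embryonic globins to 32005 to 34818 against at most 202. Among the other intermediate filament genes 6 of 9 were higher in Neg than in Fb, against 7.77% of all rows. They were led by the muscle filament Des (4.08), the neurofilament Nefl (2.24), Sync, a partner of muscle filaments (1.81), and the progenitor filament Nes (1.59). Nefl, Sync and the neurofilament Nefm did not reach 1 FPKM in 2 libraries outside Neg. They were tested only through Neg, so their direction here was largely set by the filter. Which of these cells held Krt80 was not tested. Krt4 differed from Fb by 0.66 (SE 0.20, adjusted p = 0.0315), under the limit of 1, at 0.516 and 0.658 FPKM in Neg and listed at 0 in both Fb libraries.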

How the data were processed

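The authors deposited 1 table of FPKM values for 16 libraries. Per the submitters' processing notes, TopHat2 2.0.3, Bowtie2 and Cufflinks 2.1.1 were used on mm10. Per the labels' protocols, RNA was amplified with a NuGEN kit before library preparation. The depth of the libraries is unknown, so no counting interval could be set.

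From these values log2(FPKM + 1) was computed for the 14171 rows with at least 1 FPKM in at least 2 libraries, and limma 3.58.1 (R 4.3.3; trend and robust) was fitted with 1 mean per fraction over all 16 libraries. Differences on this scale understate changes of low genes. The script was checked on simulated data. Alternatives were a pseudocount of 0.1, no filter, libraries rescaled to the same total, a replicate block, only the 4 libraries compared, and leaving out each library; leaving out Sch replicate 1 from the other comparisons was added after seeing the data. Deviations of same-numbered libraries went together in 28 of 28 pairs of fractions (correlations across genes 0.148 to 0.656, median 0.491), so the numbers were read as pairing samples.

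The members and lists were chosen with earlier results of these data known. Per-library values are given for keratins reaching 10 FPKM in a fraction and the pairs Krt8 with Krt18 and Krt1 with Krt10, others where called or reaching 1 FPKM, and up to 4 called genes a list and direction. Any other gene named was chosen after its values were seen. Promoter sequences are from RefSeq, GRCm38.p6; transcript words of 50 bases are from the reference annotation's transcripts. Positions are those of the deposited table, 1-based.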

Additional observations from a re-analysis of the deposited data

How the results depend on the processing

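The number pairing was used as a replicate block as above. It raised the keratins called in Pc against Epi from 2 to 6 and in Mc against Sch from 0 to 3 and changed no other keratin count. In Pc against Epi the count was 1 with a pseudocount of 0.1, 0 with only the 4 libraries compared and 4 without Sch replicate 1 (Krt1 and Krt77 added, adjusted p = 0.0185 and 0.0190); leaving out 1 of the compared libraries gave 1 to 2. Over all rows 216 were called, against 31 with the pseudocount of 0.1, 368 with the block, 1 with only the 4 libraries, and 67 to 184 with 1 library left out. In Neg against Fb 2 keratins were called with a pseudocount of 0.1, and 1 to 2 with 1 library left out. Leaving out 1 library gave 0 to 5 in Mc against Sch, 12 to 13 in Epi against Fb and 8 to 10 in Pc against DC, and 0 keratins were called in DC against Fb under every alternative run. With only the 4 libraries compared, calls over all rows fell from 2172 to 1079 in DC against Fb and from 2193 to 1311 in Neg against Fb. Without Pc replicate 1, Krt5 and Krt14 turned sign in Pc against Epi; with 1 library left out their log2 differences ran from -0.11 to 0.43 and from -0.059 to 0.61. The median keratin share of the Epi level, averaged over the 2 libraries, was 0.862% in DC (1.05% rescaled) and 1.70% in Neg (1.97% with Epi and Pc as the reference). With 1 library left out it ran from 0.778 to 0.981% in DC, 1.47 to 2.01% in Neg, 4.36 to 11.9% in Mc and 0.801 to 5.98% in Sch. The causes were not tested. Levels under 1 FPKM are the least sure, since depth is unknown.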

Other observations

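Between the crest-derived fractions, where 0 of 14 keratins were called without the replicate block (5 higher in Mc at an unadjusted p under 0.05), genes that act with keratins were called at shares set here beside those over all rows, 4.53% higher and 7.31% lower (5.64% and 8.14% with the block). In Mc against Sch, 1 of 20 tested anchoring genes was higher in Mc and 2 were lower (5 and 2 with the replicate block), shares of 5% and 10% that lie near those over all rows. Pkp4, a plakophilin-related protein, was higher by 2.39 on the log2 scale (limma), and the laminin receptor subunit Itga6 (-2.99) and the linker Dst (-1.67) were lower. Of 9 other intermediate filament genes 3 were lower in Mc, the muscle filament Des (-4.38), Synm (-2.15) and Nes (-1.02), and the lens filament gene Bfsp2 was higher (1.80). Of 24 keratin regulators 5 were higher in Mc, led by Tfap2a (2.14), which also acts in melanocytes, and Klf5 (1.94), and 3 were lower, led by Pou3f1 (-3.51), a factor of the Schwann lineage.

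Krt222, a keratin-like gene at the edge of the type I cluster and too low to be tested, measured 0.886 and 1.43 FPKM in DC and 0.335 and 0.991 in Fb, against 0.085 to 0.378 in the 4 epithelial libraries. Its neighbour Krt24 measured 1.32 and 0.199 FPKM in DC and was listed at 0 in every Pc and Epi library.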
